A study of Rattus norvegicus with 9 samples.

Results

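Cyp2e1 and Nat1 are the genes of foreign-compound metabolism that could be followed in this study of exposed rat lung. They were taken by the RefSeq transcript that the array design gives for each probe, NM_031543 for Cyp2e1 and NM_053853 for Nat1. They are 2 of the 30 genes that could be named on the array, and each has 1 catalogue probe, printed as 10 spots on every array. The array has 50 catalogue probes, of which 30 matched a gene symbol, and its other probes are custom. Of the custom probes, 0 carried a transcript accession of either gene.

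RNA from the whole lung of male Wistar rats was measured on 1-colour Agilent arrays, with 3 arrays in each of 3 groups. Rats were exposed to cigarette smoke (CS) or to fine particulate matter (PM2.5), both described as models of chronic obstructive pulmonary disease, or inhaled NS as controls, an abbreviation the labels leave unexplained. All exposures lasted 90 days, and the rats were 6 to 8 weeks old, an age the labels do not tie to a time point. The labels give archiving after 90, 91 and 92 days for exposed replicates 1, 2 and 3 and after 90 days for every control, although they give the exposure itself as 90 days for all rats. No dose, route or smoke source is given for either exposure.

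Both enzymes handle foreign chemicals. Cyp2e1 is a cytochrome P450 of the endoplasmic reticulum that oxidises small molecules such as ethanol, benzene and the nitrosamines found in tobacco smoke, and it is most abundant in liver. Nat1 is a cytosolic arylamine N-acetyltransferase, which transfers an acetyl group from acetyl-CoA to aromatic amines and hydrazines, a class of compounds also present in smoke. The first belongs to the oxidising and the second to the conjugating phase of the same metabolism.

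The promoter of Cyp2e1 is shown because RefSeq's promoter table matched only this 1 of the 2 genes. The stretch is the 120 bases before the annotated start, on the plus strand of build GRCr8 at chr1:205269847-205269966, with motif matches in capitals.
Cyp2e1: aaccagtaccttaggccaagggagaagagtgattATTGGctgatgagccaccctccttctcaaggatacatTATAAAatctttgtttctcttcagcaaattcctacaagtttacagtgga
The capitals mark a TATA box (TATAAA, 49 to 44 bases before the start) and a CCAAT box on the minus strand (CCAAT, 86 to 82 bases before it). Over the 250 bases before the start and on both strands, 12.9% of 33469 rat promoters held TATAAA and 34% held CCAAT. The core of the xenobiotic response element (GCGTG) was found in 25.9% of them and that of the antioxidant response element (TGACNNNGC) in 10.1%, and Cyp2e1 had 0 matches to either. None of these motifs overlap here, and a match to letters is not a measured binding site.

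The arrays differed in brightness by group, which bears on every value below. In control lung the 75th percentile of the probe signal was 348.2 ± 7.63 (SD, n = 3). It was 209.8 ± 13.2 in CS lung (SD, n = 3) and 205.2 ± 55.7 in PM2.5 lung (SD, n = 3). Levels are therefore given as log2 signal minus the 75th percentile of the same array. Arrays whose headers give the same scan date and time are taken here as 1 slide, and slide membership was inferred from that alone. By this rule all control arrays lay on 1 slide of their own, scanned on another day than the other 3 slides. The effect of exposure and that of slide or scan day therefore cannot be told apart. Replicates 2 and 3 of CS were on the same slide as replicates 1 and 2 of PM2.5.

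Both genes were clearly detected in lung. Of 90 Cyp2e1 spots over the 9 arrays 1 was left out as an outlier (on control 1), and 0 of 90 Nat1 spots were. Every spot used was well above background and 0 were saturated. The median spot signal of Cyp2e1 was 49.6 to 282.9 times its local background and that of Nat1 26.4 to 86.3 times. Precision is limited by having 3 arrays in a group.

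Cyp2e1 was lower in the lungs of exposed rats than in control lungs. The mean spot signal on control arrays 1, 2 and 3 was 3850, 3765 and 3650. On CS arrays 1, 2 and 3 it was 1388, 1525 and 905.1, and on PM2.5 arrays 1, 2 and 3 it was 1051, 569.7 and 1211. These signals still hold the difference in array brightness. After scaling, the Cyp2e1 level on control arrays 1, 2 and 3 was 3.45, 3.41 and 3.42 log2 units above the array's 75th percentile. It was 2.66, 2.81 and 2.22 on CS arrays and 2.66, 1.66 and 2.16 on PM2.5 arrays. All 6 exposed arrays lay below all 3 control arrays, PM2.5 2 was the lowest, and the CS and PM2.5 arrays overlapped.

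**Figure D1:**
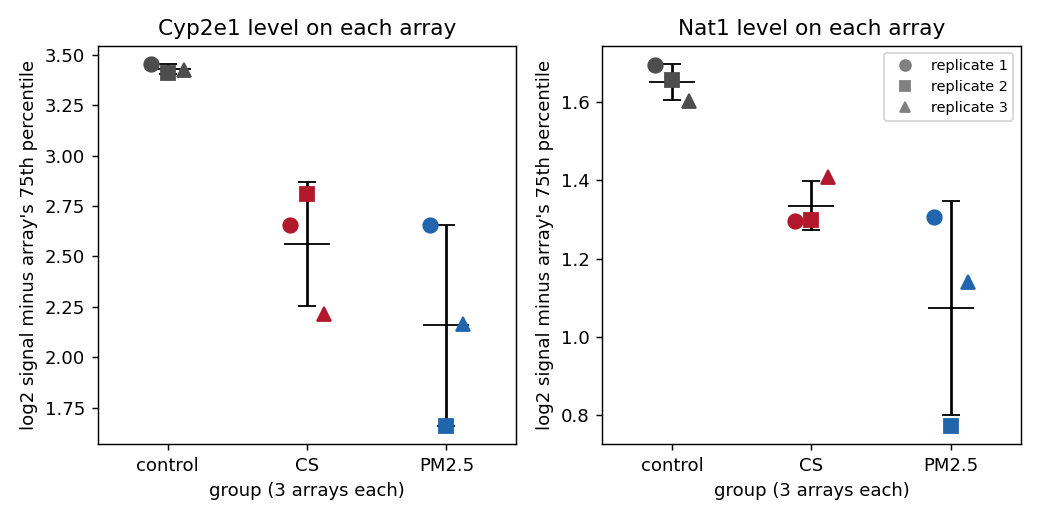
Level of Cyp2e1 (left) and Nat1 (right) on each array, as log2 signal minus the 75th percentile of the array, against group; each point is 1 array, its shape the replicate number, and the bars are mean ± SD (n = 3). All exposed arrays lie below the control arrays for both genes, and PM2.5 2 is the lowest (1.66 for Cyp2e1 and 0.77 for Nat1).

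In CS lung the Cyp2e1 level was 2.56 ± 0.31 (SD, n = 3), against 3.43 ± 0.02 (SD, n = 3) in control lung. This is a log2 difference of −0.87 (95% interval −1.42 to −0.32), or 54.8% of the control signal after scaling. It passed the limma test with Benjamini-Hochberg adjustment over 37643 probes (adjusted p = 0.0206). In PM2.5 lung the level was 2.16 ± 0.50 (SD, n = 3). The log2 difference from control was −1.27 (95% interval −1.82 to −0.72), or 41.5% of the control signal after scaling. It passed as well (limma, adjusted p = 0.00332). Over both exposures the log2 difference from control was −1.07 (95% interval −1.54 to −0.59; limma, adjusted p = 0.00331).

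Nat1 was also lower in exposed lung, by a smaller amount. Its mean spot signal was 1140, 1117 and 1038 on control arrays 1, 2 and 3. It was 541.8, 535.6 and 518.2 on the CS arrays and 414.8, 309.6 and 595.3 on the PM2.5 arrays. The scaled Nat1 level was 1.69, 1.66 and 1.60 on control arrays, 1.30, 1.30 and 1.41 on CS arrays and 1.31, 0.77 and 1.14 on PM2.5 arrays. Control arrays were again the highest without overlap. The 3 CS arrays lay close together, while PM2.5 1 reached the CS range and PM2.5 2 lay well under it.

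The Nat1 level was 1.65 ± 0.05 (SD, n = 3) in control lung and 1.33 ± 0.06 (SD, n = 3) in CS lung. The log2 difference of −0.32 (95% interval −0.64 to 0.01) did not pass (limma, adjusted p = 0.0934). In PM2.5 lung the level was 1.07 ± 0.27 (SD, n = 3). Nat1 fell there by 0.58 log2 units (95% interval 0.25 to 0.91 lower), to 67.0% of the control signal after scaling (limma, adjusted p = 0.0104). Over both exposures Nat1 fell by 0.45 log2 units (limma, adjusted p = 0.0144).

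Set against the whole array, 1 of the 2 genes was called lower in CS lung and both in PM2.5 lung. Among all probes tested, 8.42% were called lower in CS and 38.7% higher, which makes 47.2% called in either direction. In PM2.5 lung 9.78% were called lower and 47.1% higher, or 56.8% in all. For both exposures together 62.6% of all probes were called, 9.87% lower and 52.7% higher. Calls are thus common on these arrays, and the lower direction is the rarer one in this scaling. After quantile normalization 24.7% of probes were called in CS lung, 12.8% in the lower direction, and 29.7% in PM2.5 lung, 15.2% in the lower direction. With centring on the median these shares were 24.2% in CS lung, 16.5% lower, and 33.3% in PM2.5 lung, 20.6% lower. The lower direction was the more frequent one there.

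The median log2 difference over all probes was 0.45 in CS and 0.51 in PM2.5 lung. Relative to that median, Cyp2e1 stood at −1.31 in CS and −1.78 in PM2.5, and Nat1 at −0.76 and −1.09. Only 3.23% of probes had a lower log2 difference than Cyp2e1 in CS lung and 1.67% in PM2.5 lung. For Nat1 these shares were 10.9% and 6.78%. Among the 30 named genes, Cyp2e1 ranked 3 from the lowest in CS and 2 in PM2.5, and Nat1 ranked 11 and 9.

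**Figure D2:**
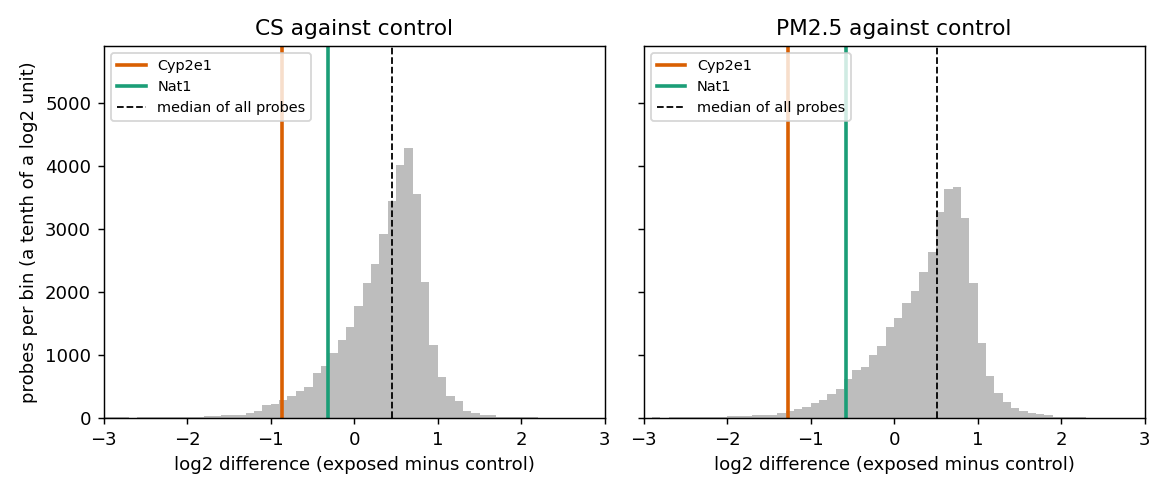
Number of probes by log2 difference from control (bins of 0.1) for CS (left) and PM2.5 (right), with the values of Cyp2e1 and Nat1 as solid lines and the median of all probes as a dashed line. Cyp2e1 (−0.87 and −1.27) lies farther into the lower tail than Nat1 (−0.32 and −0.58), and the bulk of probes lies above 0.

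The rank of a probe within its own array does not use the scaling. The Cyp2e1 probe stood above 93.7% to 93.9% of probes on control arrays, 88.1% to 90.7% on CS arrays and 85.7% to 90.1% on PM2.5 arrays. The Nat1 probe stood above 85.3% to 85.7% on control arrays, 83.5% to 84.1% on CS arrays and 80.8% to 83.6% on PM2.5 arrays. Control arrays held the highest rank for both genes with no overlap. A rank compares arrays here and says nothing of which gene has more transcript.

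The spots of each probe show how precise an array value is. The coefficient of variation among the spots of 1 array was 2.92% to 12.7% for Cyp2e1 and 6.61% to 13.7% for Nat1. Every one of the 30 Cyp2e1 spots on CS arrays and of the 30 on PM2.5 arrays lay below 3.30, the lowest Cyp2e1 spot used on a control array. The highest of them reached 3.05 on CS and 2.79 on PM2.5 arrays. Nat1 spots overlapped between groups, since 15 of 30 CS spots and 24 of 30 PM2.5 spots lay below the lowest control spot, at 1.36.

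Taken position by position, the mean over CS arrays was lower than the mean over control arrays at all 10 spot positions of Cyp2e1, by log2 differences of −1.05 to −0.75. In PM2.5 the 10 Cyp2e1 positions gave −1.38 to −1.18. The 10 Nat1 positions gave −0.41 to −0.22 in CS and −0.62 to −0.53 in PM2.5. Spots repeat the measurement of 1 RNA sample, so they do not add to the number of rats.

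**Figure D3:**
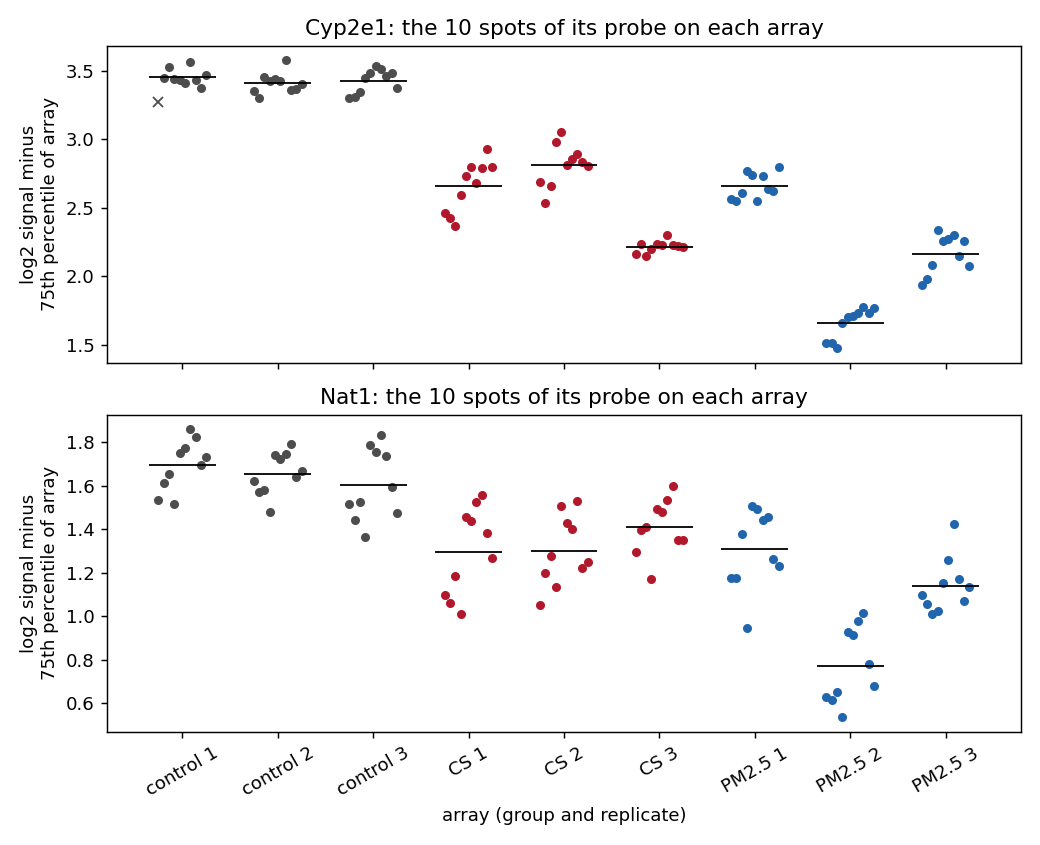
Log2 signal minus the 75th percentile of the array (vertical axis) for each of the 10 spots of the Cyp2e1 probe (top) and the Nat1 probe (bottom) on each of the 9 arrays; a cross is a spot left out as an outlier and a line is the mean of the spots used. Cyp2e1 spots of exposed arrays reach at most 3.05, below the lowest control spot used (3.30), while Nat1 spots overlap between groups.

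Spread among arrays was unequal between groups. For Cyp2e1 the SD between control arrays was 0.02 log2 units, no larger than the 0.02 that spot scatter gives as the median standard error of an array mean. Between CS arrays it was 0.31 and between PM2.5 arrays 0.50, against standard errors of 0.05 and 0.04. For Nat1 the SD between arrays was 0.05 in control, 0.06 in CS and 0.27 in PM2.5, against standard errors of 0.04, 0.05 and 0.05. Nat1 on CS arrays was about as close to spot scatter as Nat1 on control arrays. Over all probes the median SD was 0.08 in control, 0.22 in CS and 0.27 in PM2.5 lung, and 7.51% and 23.8% of probes had a lower SD on control arrays than Cyp2e1 and Nat1. The labels call all arrays biological replicates. Nothing else in the labels ties an array to a separate rat, and p-values measure only the spread between these arrays, which may be technical.

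Counting the 3 control arrays as 1 sample leaves every log2 difference as it is by construction, takes the spread from the CS and PM2.5 arrays alone and assumes that the control varies like them. The SE of both Cyp2e1 differences from control then rose from 0.24 to 0.40, and no call of either gene was left. The adjusted p (limma) for Cyp2e1 became 0.234 in CS and 0.100 in PM2.5 lung, and for Nat1 it became 0.171 in PM2.5. With slide as a random block the adjusted p (limma) was 0.178 and 0.0525 for Cyp2e1 in CS and PM2.5, and 0.0877 for Nat1 in PM2.5. With normexp background correction, Cyp2e1 in CS (−0.84, adjusted p = 0.0742) and Nat1 in PM2.5 (−0.53, adjusted p = 0.0785) did not pass in limma, while Cyp2e1 in PM2.5 did (−1.23, adjusted p = 0.0118).

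The size of the differences moved with the scaling, and their direction did not. After quantile normalization Cyp2e1 differed from control by −0.99 in CS (limma, adjusted p = 0.0106) and −1.35 in PM2.5 (limma, adjusted p = 0.00159). Nat1 then differed by −0.35 (adjusted p = 0.0652) and −0.59 (adjusted p = 0.00633). In the authors' deposited normalized values the Cyp2e1 level was 11.42 ± 0.02 (SD, n = 3) in control, 10.45 ± 0.30 (SD, n = 3) in CS and 10.09 ± 0.46 (SD, n = 3) in PM2.5 lung. The Nat1 level there was 9.59 ± 0.04, 9.25 ± 0.06 and 9.02 ± 0.24 (SD, n = 3 each). Centring on the median gave the largest differences among the scalings tried, −1.25 and −1.71 for Cyp2e1 and −0.70 and −1.02 for Nat1. The CS value of Nat1 passed there (limma, adjusted p = 0.0277).

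**Figure D4:**
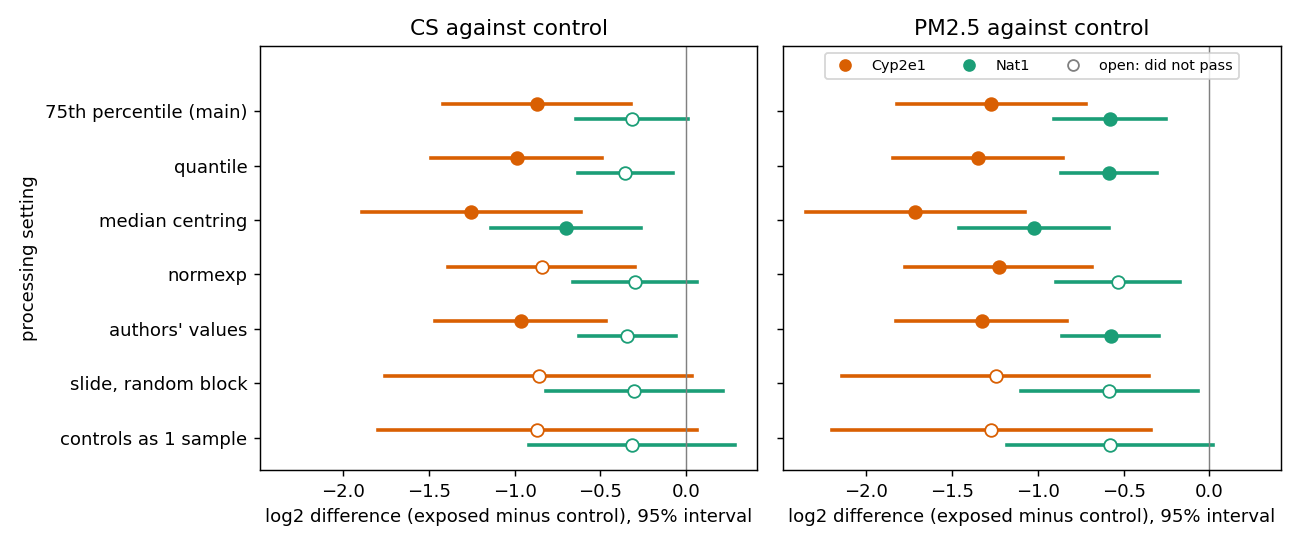
Log2 difference from control (horizontal axis, with 95% interval) of Cyp2e1 and Nat1 in CS (left) and PM2.5 (right) under 7 processing settings (vertical axis); filled points passed at an adjusted p below 0.05 and open points did not. Every point is below 0, and the intervals are widest in the lowest pair of settings, which treat slide as random or count the controls as 1 sample.

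The CS calls depended on single arrays. Without CS 3, the lowest CS array, the log2 difference of Cyp2e1 was −0.70 (limma, adjusted p = 0.0733). Without control 1, 2 or 3 it was −0.86, −0.88 and −0.87, with adjusted p of 0.0649, 0.0591 and 0.0540. The CS difference of Nat1 (−0.32) passed when PM2.5 2, which enters only the pooled spread, was left out (limma, adjusted p = 0.0321). The PM2.5 differences of Cyp2e1 (−1.52 to −1.02) and Nat1 (−0.69 to −0.43) passed whichever of the 9 arrays was left out. The mean of both exposures passed in all 9 such fits for Cyp2e1. For Nat1 it did not pass without control 1 (−0.43, adjusted p = 0.0626) or without control 2 (−0.44, adjusted p = 0.0541).

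The exposures were then compared with each other, which also tests whether their effects against the shared controls differ. Cyp2e1 was 0.40 log2 units higher in CS than in PM2.5 lung (95% interval −0.15 to 0.95), and this did not pass (limma, adjusted p = 0.472). Nat1 was 0.26 higher (95% interval −0.07 to 0.59; limma, adjusted p = 0.418). The intervals leave room for a scaled Cyp2e1 signal in CS of 0.90 to 1.93 times that in PM2.5 lung. For Nat1 the range is 0.96 to 1.50 times. In this comparison 5.88% of all probes were called, 2.75% lower and 3.13% higher in CS, and 0 of the 2 genes.

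On the slide shared by 2 arrays of each exposure, the mean Cyp2e1 level was 2.51 in CS and 2.16 in PM2.5, a difference of 0.36. The mean Nat1 level was 1.35 and 1.04 there, a difference of 0.31. With slide as a fixed term these differences had 95% intervals of −0.37 to 1.09 for Cyp2e1 and −0.10 to 0.73 for Nat1 and did not pass (limma, adjusted p = 0.406 and 0.220).

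The difference between the genes within an array is free of any shift that is the same for all probes of that array. It is not free of scaling that shifts probes by different amounts. Its log2 difference from control over both exposures was −0.62 in the main scaling, −0.70 after quantile normalization and −0.69 in the authors' values. Whether other effects of signal strength remain in it was not tested. The log2 signal of Cyp2e1 exceeded that of Nat1 by 1.76, 1.75 and 1.82 on control arrays 1, 2 and 3. The value was 1.36, 1.51 and 0.81 on CS arrays and 1.35, 0.89 and 1.02 on PM2.5 arrays. Control arrays lay above all exposed arrays. Since probes bind with different strength, only the change of this value is read, not its size.

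The within-array value was 1.78 ± 0.04 (SD, n = 3) in control, 1.23 ± 0.37 (SD, n = 3) in CS and 1.09 ± 0.24 (SD, n = 3) in PM2.5 lung. It was lower over the 6 exposed than the 3 control arrays by a log2 difference of −0.62, so the Cyp2e1 signal was reduced more than the Nat1 signal. The exact permutation test over 84 regroupings, two-sided by doubling the one-sided p, gave p = 0.0238. This is the smallest p that the doubling allows for 6 against 3 arrays. CS alone gave −0.55 and PM2.5 alone −0.69, each with p = 0.1 in the exact permutation test, the smallest that 3 against 3 arrays can reach. CS and PM2.5 differed by 0.14 (exact permutation test, p = 0.7). As for the single genes, the control arrays share a slide of their own.

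**Figure D5:**
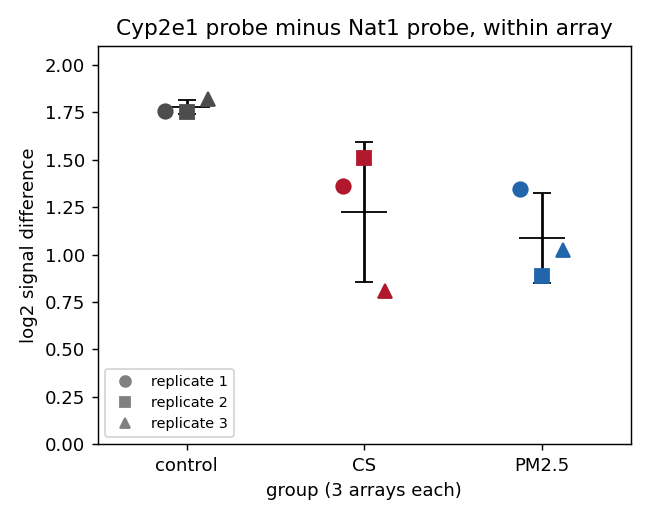
Difference between the log2 signals of the Cyp2e1 and Nat1 probes within each array (vertical axis) by group; points are arrays, shapes replicate numbers, and bars mean ± SD (n = 3). The control arrays lie at 1.75 to 1.82 and the exposed arrays between 0.81 and 1.51.

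The named genes whose levels ran most like Cyp2e1 over the 9 arrays were Cdh2, which encodes N-cadherin (Pearson r 0.98, Spearman rho 0.90), Ldha, which encodes a lactate dehydrogenase subunit (r 0.95, rho 0.90), and Nat1 itself (r 0.92, rho 0.83). Those most like Nat1 were Cyp2e1, Ndfip2, an adaptor of ubiquitin ligases (r 0.90, rho 0.80), and Cdh2 (r 0.90, rho 0.82). Trim2, a ubiquitin ligase gene, was nearly level with them (r 0.90, rho 0.88). Both orders are by Pearson r, and by rho Trim2 stood above each of these genes for Nat1. After quantile normalization these r were 0.91 to 0.96, and Pdk3, which encodes a pyruvate dehydrogenase kinase, then had the highest r with Nat1 (0.93). The points share arrays, and the gap between control and exposed arrays enters each r. Over the 6 exposed arrays alone, r was 0.95 for Cyp2e1 with Cdh2, 0.82 with Ldha and 0.79 with Nat1, and 0.73 for Nat1 with both Ndfip2 and Cdh2. On those arrays other genes stood higher in the order, namely Slc28a2, a nucleoside transporter gene, and Trim2 (r 0.84 with Nat1). Slc28a2 had r of 0.93 with Cyp2e1 and 0.86 with Nat1 there, but −0.02 and 0.05 over all 9 arrays. The order thus depends on the arrays and the scaling. Pdk3, Slc28a2 and Trim2 were named after their values were seen. These r describe the arrays and were not tested.

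The rest of the pathway could not be set beside these enzymes. Of 60 other genes of xenobiotic metabolism listed for this purpose, among them the P450 genes Cyp1a1 and Cyp1b1, the quinone reductase gene Nqo1 and the glutathione transferases, 0 had a probe that could be named. The same held for all 13 lists of cell type markers, from club cells to hepatocytes, so the tissue label could not be checked against marker genes. In whole lung, fewer cells that hold a transcript and less transcript per cell cannot be told apart. In the gene table Nat1 lies beside its relatives Nat2 and Nat3. The probe sequences were not used here, so whether the Nat1 probe also binds those transcripts was not tested.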

How the data were processed

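Per the file headers, Agilent's Feature Extraction software (11.0.1.1) made the scanner tables. The deposited intensity of a spot is linear, corrected for background within its array but not scaled across arrays, and other values are flags of 0 or 1. The authors' value table holds log2 values, with scale and centring method unstated. Its columns have a median of 6.03 and nearly the same distribution (sorted values at most 0.27 apart), and correlate with the scanner values at 0.997 to 0.999.

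Outlier spots were dropped, spots of a probe averaged on the log2 scale, and each array's 75th percentile subtracted. Probes well above background on all arrays of a group were kept (942 removed, and 219 lacked a usable spot), leaving 37643. Groups were compared with limma 3.58.1 in R 4.3.3 (lmFit, eBayes, 1 fit of 9 arrays, two-sided), calling an adjusted p below 0.05. The fit was run on simulated data with known changes, whose noise was independent between arrays and equal in spread over the groups. The real arrays share slides and have unequal spreads, and the fit was not tested under those conditions. Within-array differences used an exact permutation test, two-sided by doubling the one-sided p. Names came from RefSeq accessions (GRCr8); the header names another build, so no probe coordinates are given. Genes with a matched catalogue probe (30) are called named. Those described are the members, pathway genes with a named probe (0), and, for each member, the 3 named genes most correlated with it; 3 more were chosen after their values were seen. Members and lists were chosen with earlier results of these data known. The alternatives are scaling, background correction, filters, spot averaging, variance models, blocks, groups fitted, control arrays as 1 sample and left-out arrays. Arrays were not paired by replicate number in the main fit.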

Additional observations from a re-analysis of the deposited data

How the results depend on the processing

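The differences from control of Cyp2e1 and Nat1 stayed negative in every alternative run. Calls changed as follows (limma, adjusted p). Cyp2e1 in CS was lost with normexp (−0.84), slide as a random block (−0.86) and the control arrays as 1 sample (−0.87), and it ranged from −0.99 to −0.70 over fits that left out an array. Cyp2e1 in PM2.5 was lost with slide as a random block (−1.25) and the control arrays as 1 sample (−1.27), and so was the mean of both exposures (−1.05 and −1.07). Nat1 in PM2.5 was lost with normexp (−0.53), slide as a random block (−0.58) and the control arrays as 1 sample (−0.58), and so was its mean over both exposures (−0.42, −0.44 and −0.45, with −0.51 to −0.37 over left-out arrays). Nat1 in CS passed after centring on the median (−0.70), with array weights (−0.25), with only those groups fitted (−0.32) and without PM2.5 2 (−0.32), and ranged from −0.35 to −0.29 over left-out arrays. The array weights did not converge and gave CS 3 a weight of 123, against 0.125 to 3.06 for the others. Cyp2e1 in CS against PM2.5 reversed there (−0.37, adjusted p = 0.0171). The within-array difference between the genes stayed negative over both exposures, at −0.70 to −0.60 under other processing and −0.69 to −0.55 over left-out arrays. Without a control array the smallest p of the exact permutation test, with the one-sided p doubled, is 0.0714. Under that rule it cannot pass (−0.63 to −0.60), which is a limit of the doubling. Its CS against PM2.5 value was −0.0018 without CS 2 and up to 0.35 without other arrays.

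The number of probes called was 17756 in CS, and 9289 after quantile normalization (4834 of them lower), 9094 after centring on the median, 2388 with normexp, 9425 with the authors' values, 33671 with array weights, 2371 with slide as a random block, 166 with the control arrays as 1 sample and 8007 to 21898 over left-out arrays. In PM2.5 it was 21392, and 11177 (5735 lower), 12524, 3062 and 11333 under those scalings, 7901 with slide as a random block, 1423 with the control arrays as 1 sample and 13269 to 24947 over left-out arrays. For both exposures it was 23556, and 12092, 13432, 3656 and 12277 under those scalings, 5539 with the slide block, 465 with the control arrays as 1 sample and 14782 to 26551 over left-out arrays. Between the exposures it was 2214, and 510 with normexp, 16612 with array weights, 1204 with the replicate block, 625 with only those groups fitted, 625 with the control arrays as 1 sample and 1332 to 2575 over left-out arrays.

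With the replicate number as a block, Cyp2e1 had an adjusted p of 0.0366 in CS and 0.00909 in PM2.5 and Nat1 0.0231 in PM2.5 (limma), so no call of either gene changed. Deviations of same-numbered arrays correlated at −0.45 to 0.18. With so few arrays in a group this cannot settle whether the numbers pair the arrays.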
